A study of Mus musculus with 10 samples.

Results

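Immunoglobulin variable segments are the gene pieces that encode most of the antigen-binding domain of an antibody chain, and 202 of them were counted in RNA from splenic macrophage preparations of wild-type and Fpr2-deficient mice. The members were the rows of the deposited count table whose symbols begin with Ighv (heavy chain) or Igkv (kappa light chain) and whose total over the 10 libraries was at least 100 counts. They were 101 of 185 Ighv rows and 101 of 160 Igkv rows, in a table of 55414 rows. They were chosen by their total count, and the grouping was proposed with the shares per library known, so totals and shares are given as descriptions with no test.

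The 10 polyA RNA libraries came from spleen cells captured by a bead-bound antibody against F4/80, a marker on the surface of mouse macrophages. The 5 WT libraries came from C57BL/6N mice and the 5 Fpr2KO libraries from mice lacking Fpr2, which encodes a formyl peptide receptor of myeloid cells. The labels do not say whether the 5 libraries of a group came from separate mice, so p-values measure the spread between these libraries, which may be technical. The way Fpr2 was deleted and the strain background, age and sex of the Fpr2KO mice were not given in the sources used here. Libraries are named below by genotype and the replicate number in their labels.

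In developing B cells, a V segment is joined to D and J segments in the heavy chain locus and a V segment to a J segment in the kappa locus. A mature B cell and its descendants then largely keep the joined segments. Plasma cells, the antibody-secreting stage, transcribe the joined genes at very high levels. Macrophages do not rearrange these loci, so the segments report on B lineage RNA in the preparations. In bulk RNA, more cells using a segment and more RNA per cell cannot be told apart.

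All 101 heavy chain members lay on the minus strand of chromosome 12 between positions 113578504 and 116000461 (GRCm38, GENCODE M21), and 2 of them are annotated as pseudogenes. The 101 kappa members lay on chromosome 6 between positions 67555497 and 70704177, 40 on the plus and 61 on the minus strand, and 5 are annotated as pseudogenes. Annotated exon lengths ranged from 347 to 480 bases for Ighv (median 353) and from 298 to 501 bases for Igkv (median 361). Segments share part of their sequence with other genes. In the median Ighv segment, 43.9% of the 31-base words of its transcript also occur in another annotated gene. In the median Igkv segment the percentage was 48.2%. More than 80% of the words were shared in 4 Ighv and 1 Igkv members. The treatment of reads that match several segments was not given in the sources used here, so counts of close relatives are uncertain.

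The V exon sequences of 8 segments are shown because each held at least 10% of its class in a library, and because the capitals let a reader see how much of each can be told from its relatives. Capitals mark bases covered by at least 1 31-base word found in no other annotated gene. Lower-case bases lie only in words shared with another gene. Each is the last stretch of the V exon, of at most 300 bases, printed 5′ to 3′ along its own minus-strand transcript from GENCODE M21 (GRCm38).
Ighv5-4: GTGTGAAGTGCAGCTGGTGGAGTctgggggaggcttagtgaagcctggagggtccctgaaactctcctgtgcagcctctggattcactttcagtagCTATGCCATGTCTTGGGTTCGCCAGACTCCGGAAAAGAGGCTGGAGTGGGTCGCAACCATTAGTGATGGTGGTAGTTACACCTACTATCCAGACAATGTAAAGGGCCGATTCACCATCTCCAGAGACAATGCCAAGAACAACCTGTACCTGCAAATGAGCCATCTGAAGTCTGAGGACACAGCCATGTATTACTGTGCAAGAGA
Ighv1-36: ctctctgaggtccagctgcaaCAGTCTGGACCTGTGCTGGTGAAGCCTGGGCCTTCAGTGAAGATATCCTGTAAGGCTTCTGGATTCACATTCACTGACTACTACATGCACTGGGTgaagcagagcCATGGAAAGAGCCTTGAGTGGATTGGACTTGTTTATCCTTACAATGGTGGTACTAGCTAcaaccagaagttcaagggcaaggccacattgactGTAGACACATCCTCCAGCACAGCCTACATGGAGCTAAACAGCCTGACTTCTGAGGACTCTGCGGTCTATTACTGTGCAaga
Ighv3-6: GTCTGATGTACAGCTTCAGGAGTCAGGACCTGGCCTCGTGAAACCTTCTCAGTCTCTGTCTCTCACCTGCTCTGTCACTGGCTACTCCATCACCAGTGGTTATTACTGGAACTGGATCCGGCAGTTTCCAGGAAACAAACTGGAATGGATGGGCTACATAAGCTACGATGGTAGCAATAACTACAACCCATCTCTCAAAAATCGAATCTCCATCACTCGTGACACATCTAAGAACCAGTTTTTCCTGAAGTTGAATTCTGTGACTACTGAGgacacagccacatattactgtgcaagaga
Ighv2-3: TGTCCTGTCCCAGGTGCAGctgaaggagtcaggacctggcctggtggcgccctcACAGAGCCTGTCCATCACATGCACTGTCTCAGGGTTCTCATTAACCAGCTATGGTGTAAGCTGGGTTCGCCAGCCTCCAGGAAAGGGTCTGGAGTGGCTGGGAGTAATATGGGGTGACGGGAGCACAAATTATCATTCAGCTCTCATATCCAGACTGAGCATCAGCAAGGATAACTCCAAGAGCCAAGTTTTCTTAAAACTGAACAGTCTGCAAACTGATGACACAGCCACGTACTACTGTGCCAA
Ighv1-53: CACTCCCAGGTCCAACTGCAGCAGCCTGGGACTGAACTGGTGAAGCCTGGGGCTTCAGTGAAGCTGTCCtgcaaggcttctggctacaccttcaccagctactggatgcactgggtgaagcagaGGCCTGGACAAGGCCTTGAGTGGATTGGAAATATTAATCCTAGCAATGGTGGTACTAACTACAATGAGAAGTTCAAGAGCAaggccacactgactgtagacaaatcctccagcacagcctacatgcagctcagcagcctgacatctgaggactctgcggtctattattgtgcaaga
Igkv5-39: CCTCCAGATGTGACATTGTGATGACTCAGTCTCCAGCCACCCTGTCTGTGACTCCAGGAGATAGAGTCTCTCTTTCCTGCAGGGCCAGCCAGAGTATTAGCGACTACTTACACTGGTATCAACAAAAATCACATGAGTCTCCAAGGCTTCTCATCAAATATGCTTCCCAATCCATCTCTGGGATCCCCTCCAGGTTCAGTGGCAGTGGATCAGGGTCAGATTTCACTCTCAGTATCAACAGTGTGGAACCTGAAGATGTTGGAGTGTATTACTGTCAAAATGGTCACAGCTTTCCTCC
Igkv9-124: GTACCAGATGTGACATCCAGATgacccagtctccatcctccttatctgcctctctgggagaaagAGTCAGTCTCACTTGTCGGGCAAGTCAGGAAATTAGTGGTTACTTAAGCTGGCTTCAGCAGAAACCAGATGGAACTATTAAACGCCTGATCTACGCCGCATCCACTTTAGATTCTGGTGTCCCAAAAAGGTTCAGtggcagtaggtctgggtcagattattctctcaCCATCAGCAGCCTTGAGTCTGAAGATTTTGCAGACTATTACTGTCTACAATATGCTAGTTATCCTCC
Igkv8-19: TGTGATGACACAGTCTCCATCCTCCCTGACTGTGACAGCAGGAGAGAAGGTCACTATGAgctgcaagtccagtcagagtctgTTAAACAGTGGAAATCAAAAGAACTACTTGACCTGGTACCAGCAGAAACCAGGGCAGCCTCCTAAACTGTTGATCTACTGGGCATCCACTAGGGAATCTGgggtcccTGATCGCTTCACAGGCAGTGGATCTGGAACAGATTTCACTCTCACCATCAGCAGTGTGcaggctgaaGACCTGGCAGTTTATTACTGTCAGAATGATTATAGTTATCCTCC
The heavy chain stretches lie at chr12:113597446-113597745 (Ighv5-4), chr12:114879888-114880187 (Ighv1-36), chr12:114288152-114288451 (Ighv3-6), chr12:113611187-113611486 (Ighv2-3) and chr12:115158403-115158702 (Ighv1-53). The kappa stretches lie at chr6:69900424-69900721 (Igkv5-39), chr6:67942074-67942371 (Igkv9-124) and chr6:70340876-70341175 (Igkv8-19). All 298 bases of Igkv5-39 are in capitals, against 150 of 300 bases of Ighv1-53. The nearest member to Ighv5-4 was Ighv5-6, with 95.4% of aligned bases identical, and the nearest to Igkv8-19 was Igkv8-28, with 97.8%.

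The libraries held between 15865820 and 19060188 counts. Fpr2 was at 23.0 ± 6.02 CPM (SD, n = 5; CPM is the count divided by the TMM-scaled library size) in WT and had 0 counts in all 5 Fpr2KO libraries (edgeR quasi-likelihood test, FDR = 1.44e-06), which matches the labels. Of 14669 genes tested, 10 passed an FDR of 0.05, a background of 0.0682%. Summed transcripts of 12 red pulp macrophage markers ran from 8564 to 11266 CPM in WT and from 8580 to 11056 CPM in Fpr2KO libraries. Summed transcripts of 14 B cell markers ran from 3613 to 5297 and from 4620 to 6127 CPM. A list of 12 genes that mark handling and RNA quality was lower in Fpr2KO for 12 of 12 genes by the estimate, with a median log2 fold change of -0.38. None passed in edgeR and 2 passed in DESeq2, and 9 of 12 had an unadjusted edgeR p under 0.05, against 9.8% of all genes. Its summed level was 48496 to 62844 CPM in WT and 32535 to 56696 CPM in Fpr2KO, and its part in the results on the segments was not tested.

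Variable segment RNA was present in every library, at levels that differed several-fold between libraries. Ighv members took 0.310 to 0.919% and Igkv members 0.482 to 1.33% of all counts, and between 200 and 202 of the 202 members had at least 1 count in a library. Summed Ighv expression was 3714, 4011, 9107, 3815 and 9372 CPM in WT libraries 1 to 5 and 7771, 5649, 5073, 7103 and 2916 CPM in Fpr2KO libraries 1 to 5. Both genotypes held high and low libraries and the groups overlapped, with means of 6004 ± 2957 and 5703 ± 1898 CPM (SD, n = 5 each). Summed Igkv expression was 5711, 6140, 14036, 6066 and 12132 CPM in WT and 13157, 7418, 7388, 11122 and 4542 CPM in Fpr2KO libraries. The same 4 libraries, WT 3, WT 5, Fpr2KO 1 and Fpr2KO 4, were highest for both classes, and the means of 8817 ± 3956 and 8725 ± 3405 CPM differed by less than the spread. The direction of either difference depended on single libraries: without WT 5 the Fpr2KO mean was higher than WT by 541 CPM for Ighv and by 737 CPM for Igkv, without WT 3 by 475 and 1213 CPM, and without Fpr2KO 5 by 395 and 954 CPM. For Igkv the Fpr2KO mean was also higher without Fpr2KO 2 (by 235 CPM) or Fpr2KO 3 (by 243 CPM).

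The summed plasma cell markers, though not each marker, moved with these sums. The summed level of 14 plasma cell genes, among them Jchain, which joins antibody units, and Xbp1, the transcription factor of secretory expansion, was 4561, 4426, 7434, 3914 and 7698 CPM in WT. In Fpr2KO libraries it was 7921, 5805, 4719, 6358 and 3413 CPM, so that the 4 libraries named above were again the highest. Jchain made up most of this sum, with means of 3883 of 5607 CPM in WT and 3897 of 5643 CPM in Fpr2KO. Jchain, Mzb1, Sdc1, Derl3, Fkbp11 and Txndc5 each had these 4 libraries highest, and the other genes of the list did not. Irf4, for example, was highest in WT 1 (505 CPM). The summed B cell markers followed another order: Fpr2KO 4 was highest, and WT 2 and WT 3 were lowest. Estimates were higher in Fpr2KO for 14 of 14 B cell genes (median log2 fold change 0.18, 4 at an unadjusted edgeR p under 0.05). They were higher for 10 of 14 plasma cell genes (median 0.09, none under 0.05). Over all genes tested, 46.8% had a lower estimate in Fpr2KO. An unadjusted p under 0.05 was found for 9.8% of all genes, and for 4.88% with higher values in Fpr2KO. None of these B cell or plasma cell genes was called between genotypes in edgeR or DESeq2. Their part in the differences between libraries was not tested.

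The count of a segment was expressed as its share, the percentage of the counts of all members of its class in the same library. The summed level of the class cancels in a share, but a dominant segment also adds to that sum. Ighv5-4 made up 3260 of 7103 CPM in Fpr2KO 4, and Igkv5-39 4425 of 12132 CPM in WT 5. Counts were unevenly spread over the segments: over the 10 libraries together, 13 of 101 Ighv segments held 50% of 1006895 counts and 11 of 101 Igkv segments held 50% of 1507199 counts. The median segment had 4251 counts among Ighv members (range 116 to 81756) and 6462 among Igkv members (range 105 to 244964). Fewer than 1000 counts were found for 17 Ighv and 21 Igkv members, whose shares are the least precise. Just above the minimum of 100 counts stood Ighv11-1 (116), Ighv1-38 (123) and Ighv8-4 (128), and Igkv20-101-2 (105), Igkv18-36 (107) and Igkv3-3 (120). Just below it stood Ighv1-23 (99), Ighv3-2 (93) and Ighv4-2 (92), and Igkv4-56 (88), Igkv4-60 (85) and Igkv6-29 (72).

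**Figure D1:**
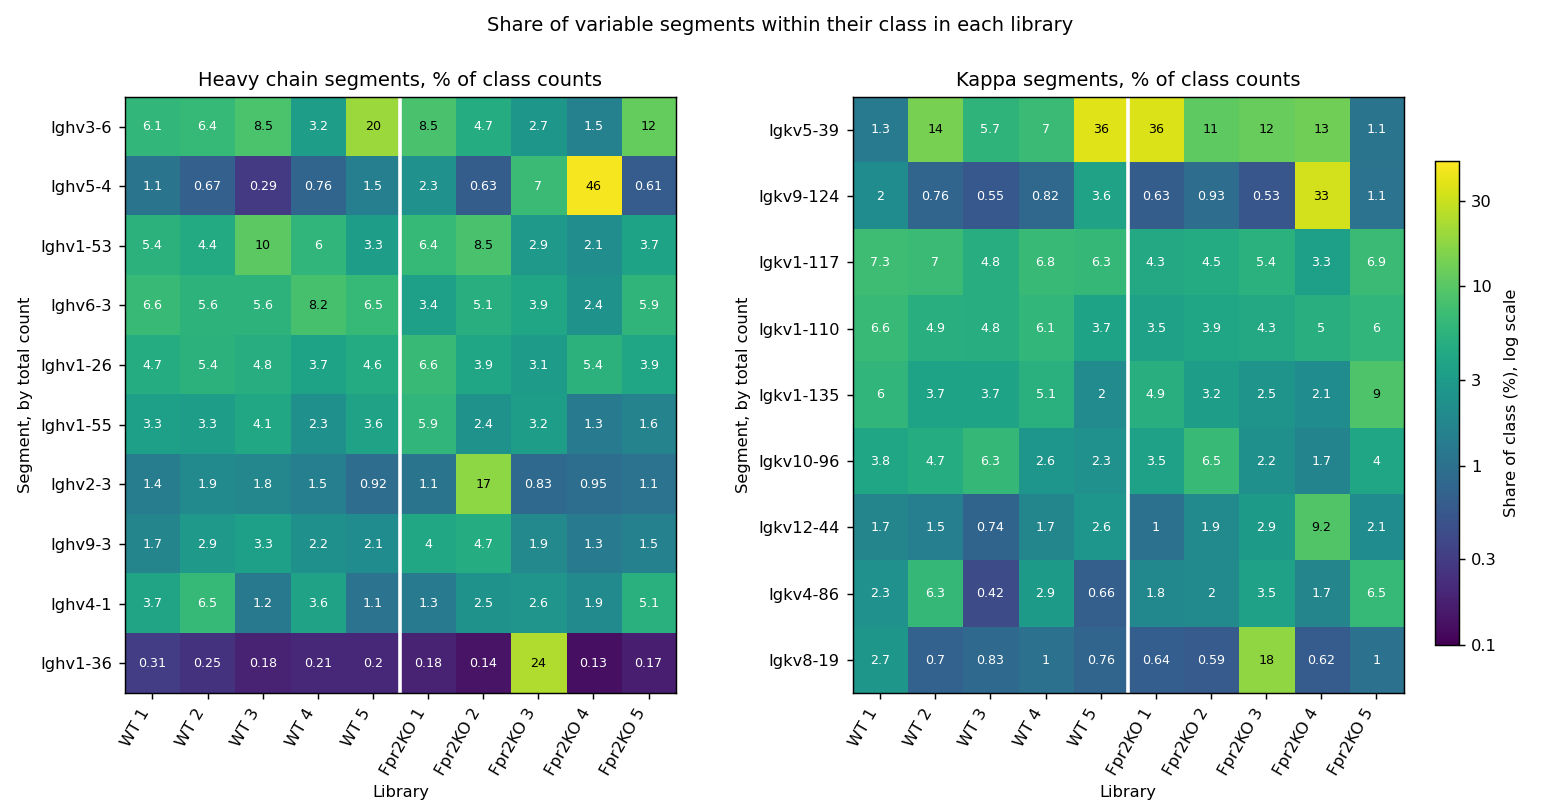
Share (%, colour on a log scale, value printed in each cell) of heavy chain (left) and kappa (right) segments. Those shown were among the 8 largest by total count or had the largest share of their class in a library. Columns are the 5 WT and 5 Fpr2KO libraries, separated by a white line. Single bright cells stand out, such as Ighv5-4 at 45.9% in Fpr2KO 4 and Ighv1-36 at 23.9% in Fpr2KO 3, beside rows without such a peak, such as Igkv1-117.

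Some of the most abundant segments took several percent of their class in every library. Ighv1-26, of the large Ighv1 family, took 4.67, 5.36, 4.79, 3.67 and 4.55% of Ighv counts in WT and 6.57, 3.90, 3.08, 5.40 and 3.90% in Fpr2KO. Ighv6-3 took 6.58, 5.59, 5.61, 8.17 and 6.48% in WT and 3.35, 5.09, 3.91, 2.45 and 5.88% in Fpr2KO. Its lowest WT value lay below its highest Fpr2KO value, so the groups overlapped (log2 fold change in CPM -0.80, SE 0.30, FDR = 0.447). Among kappa segments, Igkv1-117 took 7.32, 6.97, 4.85, 6.76 and 6.25% in WT and 4.26, 4.54, 5.35, 3.33 and 6.87% in Fpr2KO.

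A few segments instead rested on 1 library. Ighv5-4 took 1.08, 0.675, 0.290, 0.757 and 1.47% of Ighv counts in WT and 2.30, 0.629, 6.99, 45.9 and 0.605% in Fpr2KO. In Fpr2KO 4 its 59632 counts (3260 CPM) made up nearly as much as all other Ighv segments together, with a 95% Wilson interval of 45.6 to 46.2%. Such intervals cover counting error only, since reads without molecular identifiers are not independent molecules. The same library held the peak of a kappa segment: Igkv9-124 took 32.8% of Igkv counts there (66639 counts, interval 32.5 to 33%) against 0.529 to 3.60% in the other 9 libraries. Igkv12-44 also peaked in Fpr2KO 4, at 9.20%, against 0.738 to 2.94% elsewhere.

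Fpr2KO 3 had a different pair. Ighv1-36 took 0.310, 0.246, 0.181, 0.207 and 0.198% in WT and 0.182, 0.140, 23.9, 0.129 and 0.168% in Fpr2KO, so that its share in Fpr2KO 3 (20380 counts, interval 23.6 to 24.2%) was 131 times the median of the other 9 libraries. Igkv8-19 peaked in the same library at 17.6% (21914 counts, interval 17.4 to 17.9%), and its other 9 values ran from 0.595 to 2.67%. In both Fpr2KO 3 and Fpr2KO 4 the leading heavy and the leading kappa segment thus had counts of similar size. This did not hold in every library. The leading heavy and kappa counts were 32536 and 77947 in WT 5 and 10146 and 73630 in Fpr2KO 1. They were closer in Fpr2KO 2, at 16124 and 13169, and the remaining libraries were not compared. Whether the leading segments of a library were transcribed in the same cells was not tested, and bulk RNA does not link the chains.

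The remaining peaks were spread over other libraries and other segments. Ighv2-3 took 17.3% in Fpr2KO 2 (interval 17.1 to 17.6%) and 0.827 to 1.89% elsewhere. Ighv1-53 was highest in WT 3 at 10.5% (interval 10.3 to 10.6%), with 2.12 to 8.47% elsewhere. Ighv3-6, the segment with the largest Ighv total, took 6.06, 6.36, 8.52, 3.19 and 19.7% in WT and 8.49, 4.66, 2.68, 1.54 and 11.5% in Fpr2KO, so WT 5 was highest (interval 19.5 to 19.9%) and both groups held high and low libraries.

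Igkv5-39 differed from these by being high in several libraries of both genotypes. It took 1.26, 14.1, 5.72, 6.98 and 36.5% of Igkv counts in WT and 36.4, 10.8, 11.7, 13.0 and 1.10% in Fpr2KO. WT 5 (interval 36.3 to 36.7%) and Fpr2KO 1 (interval 36.2 to 36.6%) were nearly equal, while WT 1 and Fpr2KO 5 were lowest. Its mean level was 1318 ± 1766 CPM in WT against 1589 ± 1857 CPM in Fpr2KO (log2 fold change 0.27, SE 1.23, FDR = 0.963). The estimate turned negative without WT 1 (-0.04) or without Fpr2KO 1 (-0.75).

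For each of the 8 segments shown, the share of its nearest relative was read in the library of the peak. Ighv5-6, nearest to Ighv5-4, took 0.242% in Fpr2KO 4 and a median of 0.720% in the other 9 libraries. Igkv9-120, nearest to Igkv9-124 (96.0% identical), took 1.04% there against a median of 2.20%. Ighv1-19, nearest to Ighv1-36 (94.8% identical), took 1.46% in Fpr2KO 3 against a median of 0.747%. Igkv8-28 took 0.927% in the same library against 0.840%. Ighv1-72, nearest to Ighv1-53 (96.1% identical), took 2.34% in WT 3 against a median of 1.01%, and 98.1% of its 31-base words are shared with another gene. The nearest relatives of Igkv5-39, Ighv3-6 and Ighv2-3 were below their medians of the other libraries, at 0.142, 0.167 and 0.0816%. Thus 3 of the 8 relatives, Ighv1-72, Ighv1-19 and Igkv8-28, were above their own medians in the library of the peak, and 5 were below. A large peak by itself lowers every other share of its class in that library. A share below the median therefore does not show that the counts of a relative were low, and the tally cannot decide whether reads were shared. Whether shared reads contributed to these values was not tested.

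Dominance of a class was described by its largest share, by the number of segments that made up 50% of its counts, and by the effective number of segments, the inverse of the sum of squared shares, which equals the number of segments if all were equally used. A segment at or above 10% of Ighv counts was present in 6 libraries, 2 WT and 4 Fpr2KO, and the largest segment was a different one in many of them, with 7 distinct leaders over 10 libraries. For Igkv the numbers were also 6 libraries, 2 WT and 4 Fpr2KO, with 6 distinct leaders. Dividing counts by annotated exon length, an alternative chosen after seeing the data, gave the same leader in 10 of 10 libraries for Igkv. For Ighv it gave the same leader in 9 of 10, the exception being WT 2, where Ighv3-6 (6.70% per length) replaced Ighv4-1.

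The largest Ighv share was 6.58% (Ighv6-3), 6.47% (Ighv4-1), 10.5% (Ighv1-53), 8.17% (Ighv6-3) and 19.7% (Ighv3-6) in WT libraries 1 to 5. In Fpr2KO libraries it was 8.49% (Ighv3-6), 17.3% (Ighv2-3), 23.9% (Ighv1-36), 45.9% (Ighv5-4) and 11.5% (Ighv3-6). The means were 10.3 ± 5.51% and 21.4 ± 14.9% (SD, n = 5 each), and the groups overlapped: WT 5 was above 3 of the 5 Fpr2KO libraries and WT 3 above Fpr2KO 1. Without Fpr2KO 4 the difference between the means was 5.03 percentage points, against 11.1 with it.

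The largest Igkv share was 7.32% (Igkv1-117), 14.1% (Igkv5-39), 6.28% (Igkv10-96), 6.98% (Igkv5-39) and 36.5% (Igkv5-39) in WT. In Fpr2KO it was 36.4% (Igkv5-39), 10.8% (Igkv5-39), 17.6% (Igkv8-19), 32.8% (Igkv9-124) and 9.0% (Igkv1-135). The means of 14.2 ± 12.8% and 21.3 ± 12.6% lay within 1 SD of each other. The difference was 7.08 percentage points with all libraries, 12.6 without WT 5, 3.31 without Fpr2KO 1 and 4.22 without Fpr2KO 4.

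The effective number of Ighv segments was 36.7, 35.7, 26.5, 36.4 and 16.4 in WT and 26.7, 19, 13.5, 4.56 and 27.7 in Fpr2KO. Means were 30.3 ± 8.88 and 18.3 ± 9.63, and 3 WT libraries stood above every Fpr2KO library while WT 5 stood below 3 of them. For Igkv the values were 33, 22.8, 32.4, 35.4 and 6.88 in WT and 6.92, 25.3, 16.9, 7.16 and 28.1 in Fpr2KO, with overlapping groups and means of 26.1 ± 11.8 and 16.9 ± 9.88. No test was made of these scores. Without WT 5 the difference in the mean Igkv number was -14, against -9.22 with it.

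**Figure D2:**
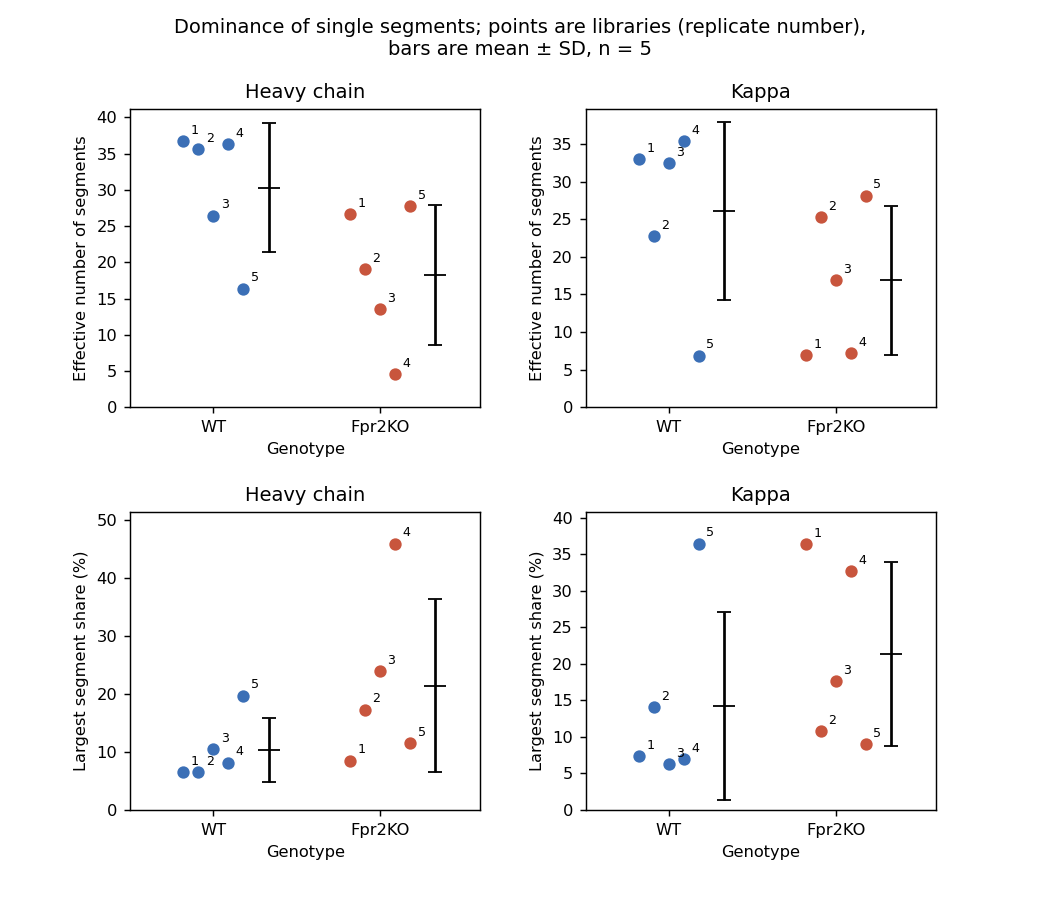
Effective number of segments (top) and largest segment share in % (bottom) for heavy chain (left) and kappa (right); each point is a library labelled with its replicate number, blue for WT and red for Fpr2KO, and the black bars are mean ± SD, n = 5. In all 4 panels the points of the genotypes overlap, and WT 5 lies among or beyond the Fpr2KO points.

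Removing the leading segment of each library left more even values. The effective number of the remaining Ighv segments was 38.1, 36.7, 29.9, 40.5 and 29.1 in WT and 27.7, 30.3, 34.4, 34.3 and 34.4 in Fpr2KO, with means of 34.9 ± 5.09 and 32.2 ± 3.10. Fpr2KO 4 thus moved from 4.56 to 34.3 when Ighv5-4 was set aside. For Igkv the values were 34.4, 30.7, 32.7, 37.0 and 32.9 in WT and 33.9, 28.5, 24.1, 14 and 30.2 in Fpr2KO. The Igkv means were 33.5 ± 2.32 and 26.1 ± 7.65, so the difference between genotypes was -7.41, against -9.22 with the leaders in. For Ighv it was -2.65, against -12.0 with them. Fpr2KO 4 was now lowest for Igkv, and Igkv5-39 and Igkv12-44 held 13.0 and 9.20% of its kappa counts beside Igkv9-124.

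Ranked by abundance, it took 13, 13, 10, 14 and 8 Ighv segments to reach 50% of class counts in WT libraries and 9, 9, 9, 2 and 11 in Fpr2KO libraries. For Igkv it took 12, 9, 11, 14 and 5 in WT and 5, 9, 8, 3 and 10 in Fpr2KO. The 5 largest segments of a library held 31.6 ± 7.24% of Ighv counts in WT and 41.6 ± 10.1% in Fpr2KO, and 35 ± 10.6% and 45.6 ± 12.3% of Igkv counts.

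**Figure D3:**
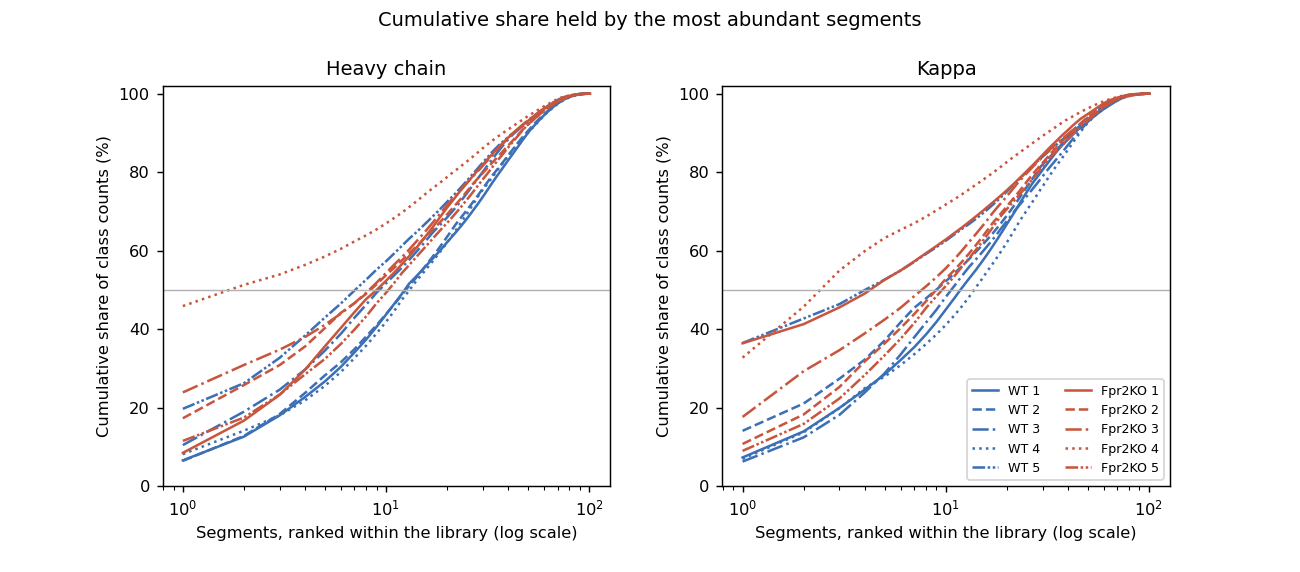
Cumulative share of class counts (%) against the number of segments, ranked by abundance within each library (log scale), for heavy chain (left) and kappa (right); blue lines are WT and red lines Fpr2KO, with a line style for each replicate number, and the grey line marks 50%. Fpr2KO 4 crosses 50% at 2 heavy chain segments, and WT 5, Fpr2KO 1 and Fpr2KO 4 start highest among the kappa curves.

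Shares far above the usual level were not limited to the leaders. The highest share was at least 3 times the median of the other 9 libraries for 46 of 101 Ighv members, 26 with their peak in a WT library and 20 in an Fpr2KO library. For Igkv the count was 49 of 101, 26 in WT and 23 in Fpr2KO libraries. Some of these members, such as Ighv11-1, Ighv8-4 and Igkv3-3, met the minimum of 100 counts only through their peak library. The tallies thus include members admitted by the peak that is counted. The peak reached at least 1% of the class for 20 of the 46 and 26 of the 49. This ratio can also be met by a segment that is high in more than 1 library, as Igkv5-39 and Ighv1-42 were. Counted in CPM, with all genes of at least 100 counts that were tested as background, 53.1% of 98 Ighv and 52.0% of 98 Igkv members met the same ratio, against 2.6% of 14586 genes. A ratio of at least 10 was met by 14 Ighv and 12 Igkv members out of 40 such genes in the table (0.274%).

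Every library held the peak of some raised segments. A segment was counted only in the library of its highest share, so the sets of the libraries could not overlap. In WT 3, Ighv1-42 reached 5.14%, Ighv8-8 4.31% and Igkv4-55 4.4%, and in WT 5, Ighv1-81 reached 6.54% and Ighv8-12 5.67%. In Fpr2KO 1, Ighv1-75 reached 8.23%, against a median of 1.16% elsewhere. In Fpr2KO 5, Ighv1-76 reached 5.95% and Igkv10-94 4.96%. Some segments were high in 1 library of each genotype: Ighv1-42 took 5.14% in WT 3 and 4.73% in Fpr2KO 1 and 0.331 to 0.785% in the other 8. Igkv19-93 took 5.74% in WT 3 and 7.52% in Fpr2KO 2, and Igkv3-4 took 6.16% and 7.01% in the same libraries.

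Rare segments showed the same pattern at low counts. Ighv15-2 took 0.556% in Fpr2KO 1 against a median of 0.0102% in the other 9 libraries, and Ighv1-56 took 0.626% in WT 3 against 0.0172%. Ighv11-1 took 0.106% in WT 4 (71 counts) and had 0 counts in WT 1 and WT 2, where 3 counts would be a share of 0.00514 and 0.00404%.

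**Figure D4:**
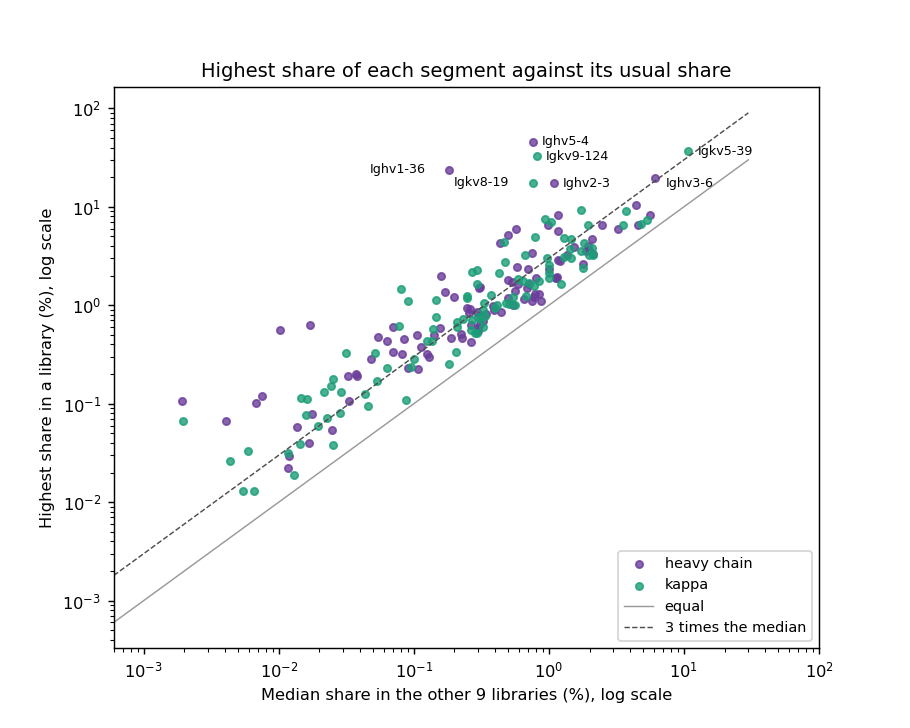
Highest share of each of the 202 segments in a library (%, log scale) against its median share in the other 9 libraries (%, log scale); purple points are heavy chain and green points kappa segments, the solid line marks equality and the dashed line 3 times the median. Segments whose highest share was at least 10% and at least 3 times the median are named, and Ighv1-36 lies farthest above the dashed line among them.

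Between genotypes, no variable segment passed the FDR of 0.05 over all 14669 genes in edgeR. Of 202 members, 98 Ighv and 98 Igkv had enough counts for the test, and Ighv8-6, Ighv8-4, Ighv11-1, Igkv8-26, Igkv3-3 and Igkv20-101-2 did not. The count of 0 members called in edgeR stood beside a background of 0.0682% of genes. At an unadjusted p under 0.05 there were 14 Ighv (4 higher and 10 lower in Fpr2KO) and 10 Igkv members (2 higher and 8 lower), or 14.3 and 10.2% against 9.8% of all genes (4.88% higher and 4.92% lower). DESeq2 called 3 of 89 Ighv and 3 of 91 Igkv members (3.37 and 3.3%), with a background of 1.26% (185 genes). It gave no adjusted p for the other members tested, among them Ighv2-3, Ighv1-36, Igkv9-124 and Igkv8-19, each with a peak in 1 library. The limma voom fit called no member, with a background of 0.0886% (13 genes).

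Estimates for most segments were below 0. The log2 fold change in CPM was negative for 66 of 98 Ighv members, or 67.3%, and for 69 of 98 Igkv members, or 70.4%, against 46.8% of all genes. The median was -0.26 for Ighv (range -3.57 to 4.28) and -0.30 for Igkv (range -2.75 to 2.42), against 0.01 over all genes. These medians depended on single libraries: without WT 3 they were -0.09 and 0.01, without Fpr2KO 1 -0.50 and -0.46, without Fpr2KO 5 -0.15 for Ighv, and without Fpr2KO 4 -0.20 for Igkv. Segments share their cells and are not independent.

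**Figure D5:**
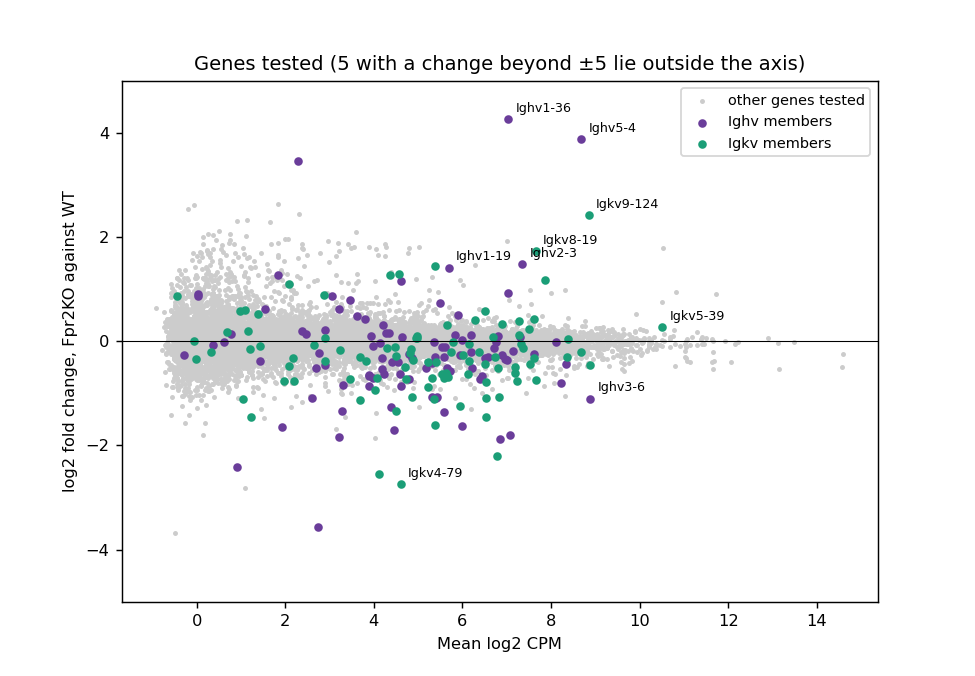
Log2 fold change of Fpr2KO against WT (vertical axis) against mean log2 CPM (horizontal axis) for the genes tested with edgeR; purple points are Ighv members, green points Igkv members and grey points other genes, and 5 genes with a change beyond 5 in either direction lie outside the axis. Variable segments range from -3.57 to 4.28, and none passed in edgeR.

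The largest estimates belonged to segments carried by 1 library. Ighv1-36 had a mean of 12.9 ± 4.51 CPM in WT against 250 ± 538 CPM in Fpr2KO (log2 fold change 4.28, SE 1.80, FDR = 0.499), and the estimate was -0.52 without Fpr2KO 3. Ighv5-4 was at 52.1 ± 48.4 and 769 ± 1399 CPM (3.88, SE 1.5, FDR = 0.462), and the estimate was 1.49 without Fpr2KO 4. Igkv9-124 (2.42, SE 1.56, FDR = 0.652) stood at -1.28 without Fpr2KO 4. Ighv2-3 (1.48, FDR = 0.676) stood at -0.63 without Fpr2KO 2, and Igkv8-19 (1.73, FDR = 0.649) at -0.62 without Fpr2KO 3.

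Ighv1-19 was the segment nearest to a call with higher values in Fpr2KO. It was at 27.7, 32.4, 33.6, 18.3 and 28.3 CPM in WT and 88.1, 86.9, 73.9, 27.4 and 99.2 CPM in Fpr2KO, so 4 of 5 Fpr2KO libraries stood above all WT libraries and Fpr2KO 4 did not. The log2 fold change was 1.42 (SE 0.32, edgeR FDR = 0.202, DESeq2 adjusted p = 0.00643), and without Fpr2KO 4 it was 1.63 with an edgeR FDR of 0.000351. As a share of Ighv counts it was 0.747, 0.808, 0.369, 0.480 and 0.302% in WT and 1.13, 1.54, 1.46, 0.386 and 3.40% in Fpr2KO. Ighv1-19 is the nearest relative of Ighv1-36, which peaked in Fpr2KO 3.

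Ighv5-16 was the only member whose groups did not overlap, both as a share and in CPM. It took 1.17, 1.11, 0.674, 1.05 and 1.06% in WT and 0.408, 0.656, 0.491, 0.364 and 0.630% in Fpr2KO. In CPM it was 43.3, 44.7, 61.4, 40.1 and 99.1 in WT and 31.7, 37.0, 24.9, 25.9 and 18.4 in Fpr2KO (log2 fold change -1.07, SE 0.28, edgeR FDR = 0.265, DESeq2 adjusted p = 0.00329). Groups without overlap in CPM were found for 1 of 98 Ighv (1.02%) and 0 of 98 Igkv members, against 1.39% of all genes (0.825% higher and 0.566% lower in Fpr2KO).

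The other members that passed in DESeq2 alone were lower in Fpr2KO. Igkv4-79 was at 18.9, 38.1, 9.19, 9.25 and 135 CPM in WT and 12, 3.76, 5.29, 5.25 and 5.29 CPM in Fpr2KO (log2 fold change -2.75, SE 0.87, edgeR FDR = 0.388, DESeq2 adjusted p = 0.0337). WT 5 was by far the highest, and the estimate was -1.60 without it. Igkv4-91 went from 63.0 ± 20.9 to 39.2 ± 5.05 CPM (-0.69, SE 0.20, edgeR FDR = 0.285). Igkv1-122 went from 32.9 ± 8.54 to 19.9 ± 6.06 CPM (-0.73, SE 0.22, FDR = 0.311) and Ighv2-6-8 from 8.16 ± 3.72 to 3.82 ± 1.07 CPM (-1.10, SE 0.33, FDR = 0.311).

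Segments fall into families of related sequence, 15 for the heavy chain and 20 for kappa. No background was computed for shares of families, and in CPM 1.39% of all genes had groups without overlap. Only the Ighv8 family, 1 of 35, had shares without overlap. Its 6 members together took 2.50, 3.43, 6.65, 3.67 and 6.52% of Ighv counts in WT and 1.64, 2.24, 1.61, 1.45 and 2.21% in Fpr2KO. In CPM the groups overlapped (317 ± 266 and 101 ± 27.7), and so did the shares once the leading segment of each library was set aside (5.18 ± 2.43 and 2.36 ± 0.399%). The WT mean included the peaks of Ighv8-8 in WT 3 and Ighv8-12 in WT 5. The largest family, Ighv1 with 50 members, took 45.0 ± 3.74% in WT and 45.0 ± 11.8% in Fpr2KO.

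Other families took the values of their peaking members. Ighv5 went from 7.60 ± 0.938% in WT to 16.4 ± 18.7% in Fpr2KO, with 49.5% in Fpr2KO 4, and Igkv9 from 4.36 ± 1.19% to 9.28 ± 13.8%, with 33.9% in the same library. Igkv8 was at 27.1% in Fpr2KO 3 and at 5.72 to 11.8% elsewhere. Igkv5 was at 38.3% in WT 5, 39.4% in Fpr2KO 1 and 4.28 to 17.8% elsewhere. The 28 members of Igkv4 together took 14.3 ± 3.65% and 10.8 ± 4.38%, and the 9 members of Igkv1 took 17.0 ± 3.24% and 14.9 ± 4.63%.

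Ighv11-2 and Ighv12-3 are known from B-1 cells, innate-like B cells that bind phosphatidylcholine, and were looked up for that role outside the rule for named segments. Ighv11-2 took 0.776, 0.458, 0.633, 0.894 and 0.339% in WT and 0.315, 0.368, 0.382, 0.392 and 0.400% in Fpr2KO. Ighv12-3 took 0.0531, 0.205, 0.196, 0.245 and 0.337% in WT and 0.0645, 0.248, 0.0703, 0.0562 and 0.0305% in Fpr2KO. Both were minor and the groups overlapped for both.

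Other immunoglobulin genes of the same libraries were read from the same fit. Of 8 heavy chain constant regions, none was called in edgeR and Igha alone in DESeq2. Igha, the constant region of IgA, was at 375, 748, 276, 786 and 1104 CPM in WT and 2989, 1410, 1792, 2315 and 2944 CPM in Fpr2KO. Every Fpr2KO library was above every WT library, with a log2 fold change of 1.80 (SE 0.40, edgeR FDR = 0.201, DESeq2 adjusted p = 0.00145). Igha had the smallest edgeR p of the 8 genes and was named for it. Over all genes tested, 1.39% had groups without overlap in CPM (0.825% higher in Fpr2KO), and DESeq2 called 1.26%. Constant regions show the antibody class and variable segments the joined V gene, and bulk counts do not link them.

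All 3 lambda variable segments had lower estimates in Fpr2KO and none was called. Iglv2 (log2 fold change -1.05, FDR = 0.469) stood at -0.48 without WT 5, where it held 53.1% of lambda segment counts against 24.9 to 36.8% in the other libraries. Estimates of the 5 kappa and 4 heavy joining segments were all positive, with medians of 0.30 and 0.27, and none was called. The count of Igkv members per Ighv count ran from 1.29 (WT 5) to 1.69 (Fpr2KO 1).

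Genes that assemble the segments were also read. Of 16 genes for recombination, hypermutation and the surrogate light chain, 10 passed the count filter and none was called. Rag2, a subunit of the recombinase, and Vpreb2 and Igll1, parts of the surrogate light chain of B cell precursors, had 0 counts in all 10 libraries, and Rag1, the other recombinase subunit, had 12 counts in all. The 3 octamer factors Pou2f1, Pou2f2 and Pou2af1, which act at variable segment promoters, were tested and none was called.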

How the data were processed

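PolyA RNA libraries from 10 preparations (5 WT, 5 Fpr2KO) were analysed from the raw count per gene that the authors deposited as 1 table. Counting used HTSeq 0.10.0, after quality control with FastQC 0.10.1, on mm10/GRCm38, per the submitters' processing notes. Aligner, strand setting and treatment of multi-mapped reads were not given in the sources used here. Among 55414 identifiers, 52133 matched GENCODE M21, which gave positions, exon lengths and sequences (GRCm38).

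Members and gene lists were chosen with earlier results of these data known. The rule for named segments took the largest by total, the leader of each library, the smallest p-values in each direction, the largest peaks over the median, segments without overlap and those nearest the minimum. Some further segments with high peaks were named after their values were seen. Shares were computed within Ighv and within Igkv per library, with 95% Wilson intervals. The floor for a count of 0 was 3 counts.

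All genes were fitted with edgeR 4.0.16 in R 4.3.3 (filterByExpr, TMM, robust quasi-likelihood test, two-sided, Benjamini-Hochberg over 14669 genes). CPM used TMM-scaled library sizes, and libraries held 15865820 to 19060188 counts. DESeq2 1.42.0, limma 3.58.1 (voom), other scalings and filters, a replicate block and leaving out each library were alternatives. The script was tested on simulated data. Among 20 pairs of libraries of 1 group, no pair agreed within sampling noise.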

Additional observations from a re-analysis of the deposited data

Results flagged for a closer look

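Within each genotype, 50 groups of 5 values (class summaries and shares of named segments) were examined for a value far from the other 4, and 8 were found, 2 in WT and 6 in Fpr2KO. Chance sets apart about 1 in 20 groups where the groups are not picked for their values. Many of these segments were named for a large share in a library, so the number found is a description and is not to be read against that rate. The largest Igkv share of WT 5 was 36.5% (Igkv5-39), against 6.28 to 14.1% in the other WT libraries. Fpr2KO 4 stood apart for Ighv5-4 at 45.9% (others 0.605 to 6.99%), for Igkv9-124 at 32.8% (others 0.529 to 1.07%) and for Igkv12-44 at 9.20% (others 1.02 to 2.94%). Fpr2KO 3 stood apart for Ighv1-36 at 23.9% (others 0.129 to 0.182%) and for Igkv8-19 at 17.6% (others 0.595 to 1.01%). Fpr2KO 2 stood apart for Ighv2-3 at 17.3% (others 0.827 to 1.09%). WT 1 stood apart for Igkv8-19 at 2.67%, against 0.70 to 1.01% in the other WT libraries.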

How the results depend on the processing

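The number of genes called was 10, and it was 185 with DESeq2, 62 with no filter on low counts and 64 with the replicate block. It ran from 8 to 51 when a library was left out (26 without WT 4, 51 without WT 5, 26 without Fpr2KO 2). The number of variable segments called was 0, and it was 6 with DESeq2, 1 with the replicate block (Ighv1-19, log2 fold change 1.33, FDR = 0.0280), and 0 to 1 when a library was left out. The cause was not tested. The labels do not say whether replicate numbers pair the libraries. The correlation of deviations between libraries of the same number was -0.105, 0.291, -0.103, 0.25 and -0.239. These values were not set beside those of libraries of different numbers, so they cannot decide whether the libraries are paired. Among log2 fold changes that turned direction, Igkv1-135 (0.05) was -0.040 with limma voom and -0.025 with the replicate block, and Igkv9-124 (2.42) was -0.11 with the replicate block. Leaving out a library gave -0.75 to 1.55 for Igkv5-39, -0.31 to 0.11 for Ighv4-1, -0.32 to 0.28 for Igkv1-135, -0.78 to 0.27 for Ighv1-53, -0.57 to 0.32 for Igkv10-96, -0.63 to 1.82 for Ighv2-3, -0.52 to 4.59 for Ighv1-36, -0.62 to 2.01 for Igkv8-19 and -1.28 to 3.41 for Igkv9-124. The differences between genotypes in effective number and largest share kept their direction under every alternative run. The summed Igkv difference was -91.6 CPM, and 176 CPM with no TMM factor. Segments under 1000 counts limit the precision of shares.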
